A study of Homo sapiens with 6 samples.

Results

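The cytosolic ribosomal protein genes were followed in 6 RNA sequencing libraries of human prostate cancer cell lines. A gene counted as a member when its symbol was RPL or RPS with digits and at most one of the letters A, X, L or Y, or was RPLP0, RPLP1, RPLP2 or RPSA, and when it averaged at least 20 raw counts over the 6 libraries. The kinases named RPS6K and rows named as pseudogenes were dropped. Of 81 symbols that met the naming rule, 78 passed the count filter, 46 of the large and 32 of the small ribosomal subunit, among 13885 genes tested and 21512 rows in all. The rule used no difference between libraries.

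The libraries came from BicR cells under dihydrotestosterone (DHT, an androgen), bicalutamide (an antiandrogen) or ethanol vehicle, and from LNCaP cells under the same agents, with 1 library for each line and treatment. LNCaP is an established androgen-responsive prostate cancer line. BicR is likewise labelled as a prostate cancer line, with no account of its origin. All cells had first been held for 3 days in steroid-poor medium (without phenol red, 2.5% charcoal-stripped serum) and were then exposed for 24 h to 10 nM DHT, 1 µM bicalutamide or vehicle. Differences between a pair of libraries therefore have no replicate check, and are given on the log2 scale of CPM plus 1, with CPM being counts scaled to a common library size, and with exact 95% intervals of the ratio where stated, which cover counting error only. Comparisons that name the same library, above all the ethanol libraries, share it.

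A ribosome is built from ribosomal RNA and about equal molar amounts of its proteins, each encoded by a small and highly transcribed gene. The large subunit forms peptide bonds and carries the stalk and the exit tunnel, and the small subunit reads the mRNA. Most ribosomal protein mRNAs begin with a 5′ terminal oligopyrimidine (TOP) tract, a C followed by an unbroken run of pyrimidines, through which their translation follows growth signals passed on by the kinase mTOR and the RNA-binding protein LARP1.

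Total counts ran from 42162723 to 55917016 per library. The luminal prostate genes KLK3, KRT8 and KRT18 were present in all 6 libraries, whereas the stromal gene COL1A2, the endothelial gene CDH5 and the immune genes PTPRC and MS4A1 were at 0 counts in all 6. Other genes of those lists were present, the stromal COL1A1 with 1071 to 2494 counts, the endothelial VWF with 150 to 452 and the immune CD68 with 473 to 1426. They made up most of the summed level of their lists. Over whole marker lists the summed level was 3192 to 11148 CPM for 8 luminal genes, 0.154 to 1.04 CPM for 3 basal genes, 26.7 to 47.5 CPM for 5 stromal genes, 3.03 to 10.8 CPM for 3 endothelial genes and 11.3 to 28.5 CPM for 4 immune genes. LNCaP bicalutamide and LNCaP ethanol also differed in genes of other kinds. Compared with LNCaP ethanol, 15 of 17 endoplasmic reticulum stress genes were at least 1.5-fold lower in LNCaP bicalutamide, against 7.94% of all genes. In the same pair 25 of 25 mitosis genes were at least 1.5-fold higher in LNCaP bicalutamide, against 6.52%. Which library of the pair is unusual cannot be told from it. The part of these genes in the ribosomal protein results was not tested, and comparisons without the LNCaP ethanol library are given beside those with it.

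The 78 genes took a larger share of the reads in LNCaP cells under DHT or ethanol than in any of the other 4 libraries. The share was 3.79% of counts in BicR DHT, 3.90% in BicR bicalutamide and 4.03% in BicR ethanol. It was 6.32% in LNCaP DHT, 3.91% in LNCaP bicalutamide and 5.72% in LNCaP ethanol. Counting error was small, with a 95% Wilson interval of 6.31% to 6.32% in LNCaP DHT. LNCaP bicalutamide thus lay with the BicR libraries and not with the other LNCaP libraries. In bulk RNA, fewer cells that express a gene and less of its RNA per cell cannot be told apart.

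In both subunits LNCaP DHT and LNCaP ethanol lay above the other 4 libraries, and the summed counts of the large subunit moved somewhat more. RPLP0 alone held 357801 of the 2020474 large subunit counts in LNCaP ethanol. By gene the large subunit did not move more in every comparison. For BicR minus LNCaP over the 3 treatments in edgeR, described further on, the median log2 fold change was -0.41 in the large and -0.46 in the small subunit. Large subunit genes took 2.29%, 2.37% and 2.49% of counts in BicR under DHT, bicalutamide and ethanol, and 4.09%, 2.48% and 3.72% in LNCaP under the same agents. Small subunit genes took 1.5%, 1.53% and 1.54% in BicR and 2.23%, 1.42% and 2.0% in LNCaP, in the same order. The ratio of large to small subunit counts was 1.53, 1.55 and 1.62 in the BicR libraries and 1.83, 1.74 and 1.86 in the LNCaP libraries, so every BicR library lay below every LNCaP library.

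**Figure D1:**
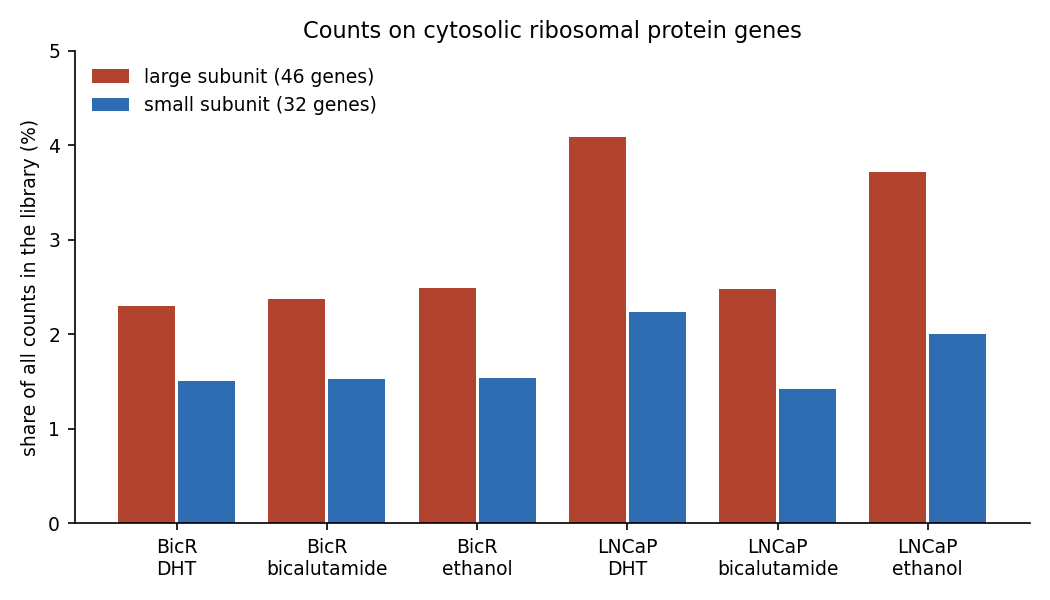
Share of all counts in a library (%) on 46 large subunit and 32 small subunit ribosomal protein genes, 1 bar per subunit and library. The large subunit bars of LNCaP DHT (4.09%) and LNCaP ethanol (3.72%) stand above those of the other 4 libraries, which run from 2.29% to 2.49%.

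Gene by gene, 62 of the 78 members had both the LNCaP DHT and the LNCaP ethanol CPM above all 4 other libraries, 39 of 46 in the large and 23 of 32 in the small subunit. The same order held for 22.1% of all genes tested. In 23 members every BicR library lay below every LNCaP library, against 16.8% of all genes. LNCaP DHT was the highest library for 34 large and 18 small subunit genes. The share of all tested genes with that library highest was not computed.

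Levels per gene length, read from the authors' RPKM (reads scaled to gene length and depth), spread widely although the proteins are needed in near-equal amounts. The median member ran from 281 RPKM in LNCaP bicalutamide to 403 RPKM in LNCaP DHT, against 5.52 to 6.16 RPKM for the median tested gene. RPLP0 had the highest mean over the 6 libraries, with 1073, 1045 and 1143 RPKM in BicR under DHT, bicalutamide and ethanol, and 2838, 1543 and 3665 RPKM in LNCaP. It led in LNCaP DHT and LNCaP ethanol, RPS18 in BicR DHT and LNCaP bicalutamide, and RPS6 in the other BicR libraries. RPS18, a protein of the small subunit head, averaged 1824 RPKM over the libraries, RPL3, which reaches towards the peptidyl transferase centre, 1635, RPS6, the substrate of the S6 kinases, 1394, and RPS14 1322. RPL8 averaged 940 RPKM.

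At the other end, RPL39L averaged 8.65 RPKM, RPL36A 10.5, RPS27L 12.3, RPS26 13.6, RPL10 23.4 and RPS21 23.9. RPL10, whose protein completes the large subunit, and RPS26 encode core proteins, whereas RPL39L and RPS27L are copies of RPL39 and RPS27. The order of the 78 levels was nearly the same in every library, with rank correlations of the RPKM values from 0.945 to 0.991 between pairs of libraries, which share the gene models and counting. Across the 78 members the mean level did not follow the number of annotated pseudogene copies (Pearson's r = -0.06, Spearman's rho = -0.07). Whether reads of RPL10 (19 annotated copies), RPL36A (19) or RPS26 (30) were lost to such copies was not tested.

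The sequence at the transcription start, shown because the TOP tract is the feature by which these mRNAs are known, was read from RefSeq promoters of GRCh38.p14 for the 63 members with an entry. The 20 bases before and the 10 bases from an annotated start are given below 5′ to 3′ on the gene's strand, with the pyrimidine run that begins with C at the start in capitals. Where a gene had several annotated starts, a start with such a run was shown if there was any. RPLP0, RPLP1, RPL37A, RPL13, RPS14, RPS27A and RPS21 were chosen for their values, and RPS7, RPL10L and RPS27L as members that hold no such run at any annotated start. RPL3, also among the highest members by level, held no such run either and is not shown.
RPLP0, chr12:120201102-120201131, minus strand: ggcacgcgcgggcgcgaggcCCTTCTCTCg
RPLP1, chr15:69452798-69452827, plus strand: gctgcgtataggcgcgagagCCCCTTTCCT
RPL37A, chr2:216498824-216498853, plus strand: cctgcgcaccgcgtctcttcCTTTCTgggc
RPL13, chr16:89560662-89560691, plus strand: gtgcattgcggggccgcttcCTTTCCgctc
RPS14, chr5:150449730-150449759, minus strand: tcgctccgccccctcccactCTCTCTTTCC
RPS27A, chr2:55232668-55232697, plus strand: gggcctgcgcggcgttcttcCTTTTCgatc
RPS21, chr20:62387083-62387112, plus strand: tgccgggtgactagctgcttCCTTTCTCTC
RPS7, chr2:3575240-3575269, plus strand: ttccggtttccgccctcctcctcgcgctgt
RPL10L, chr14:46651772-46651801, minus strand: gcgcgcaggcgtagttaagagagcgcattt
RPS27L, chr15:63157468-63157497, minus strand: cccggaagttgatgccgagcgcagatcgct

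A tract was called where any annotated start of the gene was C and at least 4 more pyrimidines (C or T) followed without a break, on the gene's strand only. It was present in 45 of the 63 matched members, 71.4%, against 7.42% of 9380 tested genes with an entry. The large subunit held it in 27 of 38 and the small subunit in 18 of 25. With the C allowed anywhere within 10 bases of any such start, it was found in 88.9% of matched members and 42.5% of tested genes. Members with and without a tract at the start were set side by side without a test. In LNCaP bicalutamide minus LNCaP ethanol the median log2 difference was -0.62 for 45 members with and -0.46 for 18 without it, and in BicR minus LNCaP ethanol it was -0.53 for both. In BicR bicalutamide minus BicR ethanol 38 of 45 with and 10 of 18 without a tract were negative, and in BicR minus LNCaP bicalutamide 25 of 45 and 15 of 18, with all 4 medians between -0.10 and -0.03.

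Within LNCaP cells, most ribosomal protein genes were lower under bicalutamide than under ethanol. In this pair of libraries 71 of 78 members had a negative log2 difference, with a median of -0.59 (large subunit -0.59, small subunit -0.52), against 0.01 for all tested genes. At least 1.5-fold lower were 40 members, 24 of the large and 16 of the small subunit, and 8 were at least 2-fold lower. Of all genes tested, 7.94% were at least 1.5-fold lower. None of the 78 was at least 1.5-fold higher, as 6.52% of all genes were.

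The ribosomal stalk, which recruits the elongation factors, held the member with the largest drop. RPLP0, the base of the stalk, had 2813 CPM in LNCaP bicalutamide and 7158 CPM in LNCaP ethanol, a ratio of 0.393 (95% interval 0.391 to 0.395). RPLP1, an acidic protein that binds to it as a dimer with RPLP2, had 381 CPM in LNCaP bicalutamide and 595 CPM in LNCaP ethanol. RPLP2 had 465 CPM in LNCaP bicalutamide and 851 CPM in LNCaP ethanol. All 3 were thus at least 1.5-fold lower under bicalutamide on the log2(CPM + 1) scale. RPL12, which forms the foot of the stalk, had 161 CPM under bicalutamide and 196 CPM under ethanol, a log2 difference of -0.28.

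Elsewhere in the large subunit RPL37A, a small zinc-binding protein, had 180 CPM in LNCaP bicalutamide and 449 CPM in LNCaP ethanol (ratio 0.40, interval 0.390 to 0.409). RPL35 at the exit of the peptide tunnel differed by -1.18, RPL13 by -1.13 and RPL8 by -1.01 on the log2 scale. Around the tunnel 4 of 10 members were at least 1.5-fold lower, with a median of -0.44. The pair that forms a particle with the smallest ribosomal RNA and binds the p53 inhibitor MDM2 was split, since RPL11 differed by -0.26 while RPL5 had 215 CPM in LNCaP bicalutamide and 192 CPM in LNCaP ethanol, a log2 difference of 0.16. RPL26, known to bind p53 mRNA, differed by 0.15. RPL5 and RPL26 were the 2 large subunit members with a positive difference.

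In the small subunit RPS15, which reaches into the decoding site, had 140 CPM in LNCaP bicalutamide and 284 CPM in LNCaP ethanol. RPSA, also known as the laminin receptor precursor, had 804 CPM in LNCaP bicalutamide and 1396 CPM in LNCaP ethanol. Both were lower under bicalutamide, as were 3 of 5 members at the mRNA entry and decoding sites, 7 of 11 of the head and 4 of 8 of the platform by at least 1.5-fold. Against this, RPS27A, which is made as a fusion with ubiquitin, had 41.2 CPM in LNCaP bicalutamide and 28.6 CPM in LNCaP ethanol (ratio 1.44, interval 1.35 to 1.54). RPS21 had 18.3 CPM in LNCaP bicalutamide and 13.0 CPM in LNCaP ethanol (ratio 1.41, interval 1.27 to 1.56). RPS20 (0.07), RPS7 (0.03) and RPS24 (0.01) lay near 0 in log2 difference. Of 15 members known for mutations in Diamond-Blackfan anaemia, an inherited failure of red cell formation, 7 were at least 1.5-fold lower, with a median of -0.43.

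**Figure D2:**
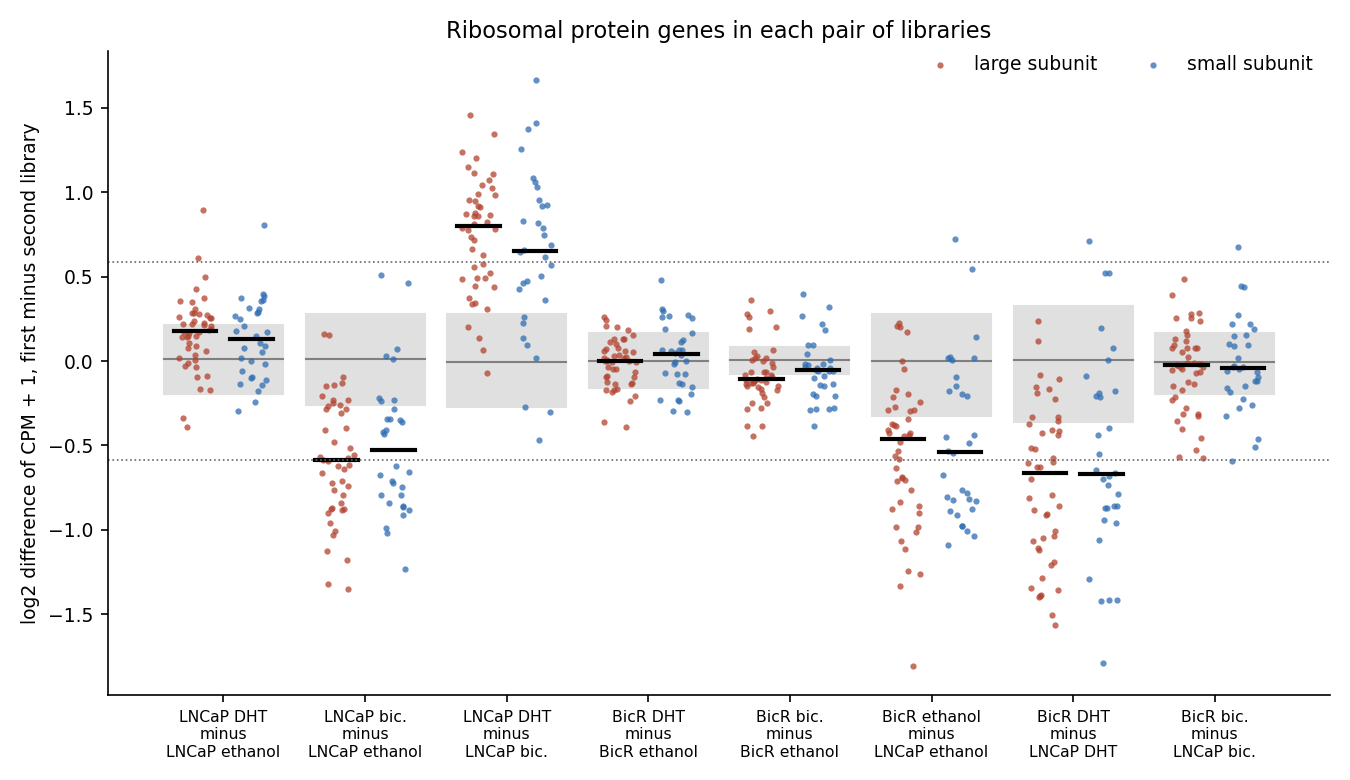
Log2 difference of CPM + 1 for each ribosomal protein gene (points; 46 large subunit, 32 small subunit) in 8 pairs of libraries, first minus second, with black bars at subunit medians, grey boxes for the quartiles and median of 13885 tested genes, and dotted lines at 1.5-fold; bic. is bicalutamide. Most points lie below the median of the tested genes in LNCaP bicalutamide minus LNCaP ethanol and in BicR minus LNCaP under ethanol and DHT. In both comparisons within BicR the points lie around 0.

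Under DHT, LNCaP cells had slightly higher levels than under ethanol. The median difference was 0.17 (0.18 in the large and 0.13 in the small subunit), 58 of 78 were positive, and 3 members were at least 1.5-fold higher against 4.88% of all genes. With the trend on gene length removed, described further on, the median was 0.05 and 46 of 78 were positive. RPL34 had 344 CPM in LNCaP DHT and 185 CPM in LNCaP ethanol (ratio 1.86, interval 1.82 to 1.91). RPS19, the gene most often mutated in Diamond-Blackfan anaemia, had 281 CPM in LNCaP DHT and 160 CPM in LNCaP ethanol (ratio 1.76, interval 1.71 to 1.80). RPL9 had 2122 CPM in LNCaP DHT and 1389 CPM in LNCaP ethanol. These 3 are the members chosen for this difference, and like most members they were highest in LNCaP DHT among all 6 libraries. None was at least 1.5-fold lower, against 5.29% of all genes, and the lowest differences were -0.39 in RPLP0, -0.34 in RPL10L, -0.30 in RPS18 and -0.24 in RPS7.

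The comparison of LNCaP DHT with LNCaP bicalutamide leaves the LNCaP ethanol library out. Its median difference was 0.76, 74 of 78 members were positive, and 48 were at least 1.5-fold higher under DHT, 30 of the large and 18 of the small subunit, against 8.87% of all genes. None was at least 1.5-fold lower, against 7.03%. RPS19 differed most, by 1.66, with 281 CPM in LNCaP DHT and 87.8 CPM in LNCaP bicalutamide. RPL37A differed by 1.46 and RPS15 by 1.37. RPS21 (-0.47), RPS27A (-0.30), RPS7 (-0.27) and RPL5 (-0.07) were the 4 members lower under DHT.

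BicR cells showed no such spread. Under DHT the median difference from ethanol was 0.01 and 0 of 78 members passed 1.5-fold in either direction, where 4.23% of all genes were at least 1.5-fold higher and 4.55% lower. RPS14 had 1490 CPM in BicR DHT and 1069 CPM in BicR ethanol (ratio 1.39, interval 1.38 to 1.41). The highest in the large subunit were RPL36A at 0.26 and RPL23 at 0.24. The lowest were RPL28 at -0.39, with 1171 CPM in BicR DHT and 1538 CPM in BicR ethanol, RPL13 at -0.36, RPS15 at -0.30 and RPS9 at -0.29. Under bicalutamide the median was -0.09, the range -0.45 to 0.40, and again 0 of 78 passed 1.5-fold, as did 0.0504% of all genes upward and 0.108% downward. LNCaP and BicR differences were not tested against each other, since 1 library per group allows no interaction term.

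Over both lines, edgeR's quasi-likelihood test with an additive model of line and treatment, with Benjamini-Hochberg adjustment over 13885 genes at 0.05, called no member for either agent. For DHT minus ethanol 0 members were called, where 0.158% of all genes were called higher and 0.0072% lower, and 0 members had an unadjusted p under 0.05. The median log2 fold change of the members was 0.08, and 0.01 with the trend on gene length, described further on, as an offset. Its sign depended on single libraries, since leaving out LNCaP DHT gave -0.13 and leaving out BicR ethanol gave -0.01. Leaving out BicR DHT gave 0.29 and leaving out LNCaP ethanol gave 0.17. For bicalutamide minus ethanol 0 members were called, and 0% of all genes in either direction. Here 3 members, RPL7A, RPL27 and RPL41, named after their values were seen, were lower at an unadjusted p under 0.05 and 0 were higher. The adjusted p of each of these 3 was 0.996 in this edgeR test. The share of all genes under that unadjusted p was not computed. Of the members' fold changes 70 of 78 were negative, and the median was -0.32. Without the LNCaP bicalutamide library that median was -0.06, and without BicR bicalutamide it was -0.63. With the trend on gene length as an offset it was -0.14, and with length and GC -0.13. DESeq2's Wald test and limma with voom also called 0 members for both agents.

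Between the lines, edgeR called 6 members lower in BicR than in LNCaP over the 3 treatments and 0 higher. Of all genes tested 2.84% were called lower and 1.58% higher. The median log2 fold change of the members was -0.43 and 67 of 78 were negative. With the trend on gene length as an offset the median was -0.21 and 57 of 78 were negative, and with length and GC it was -0.24. RPLP1 fell by 1.11 (SE 0.217, adjusted p = 0.0291), with 252, 255 and 251 CPM in BicR under DHT, bicalutamide and ethanol, and 718, 381 and 595 CPM in LNCaP. RPLP0 fell by 1.26 (SE 0.278, adjusted p = 0.0430), with 2072, 1895 and 2046 CPM in BicR and 5455, 2813 and 7158 CPM in LNCaP. Both stalk genes were nearly level over the BicR libraries and varied in LNCaP. RPLP2 did not pass and had 393, 374 and 392 CPM in BicR and 855, 465 and 851 CPM in LNCaP.

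The remaining calls were RPL38, RPL18 and RPL36 of the large and RPS27L of the small subunit. RPL38, a tunnel exit protein known in the mouse for its part in body patterning, fell by 0.89 (SE 0.185, adjusted p = 0.0352), with 79.8, 74.2 and 90.1 CPM in BicR under DHT, bicalutamide and ethanol, and 196, 107 and 162 CPM in LNCaP. RPL18 fell by 0.93 (SE 0.208, adjusted p = 0.0439), with 110, 112 and 124 CPM in BicR and 289, 149 and 247 CPM in LNCaP. RPL36 fell by 0.94 (SE 0.221, adjusted p = 0.0499), with 494, 531 and 555 CPM in BicR and 1264, 730 and 1122 CPM in LNCaP. RPS27L, a copy of RPS27 known as a p53 target, fell by 0.75 (SE 0.173, adjusted p = 0.0484), with 16.2, 15.2 and 13.3 CPM in BicR and 26.0, 22.1 and 27.1 CPM in LNCaP. In each of the 6 called genes every BicR library lay below every LNCaP library, as in 16.8% of all genes tested. The 6 were called for being lower in BicR in these same libraries, so this order is no further support.

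**Figure D3:**
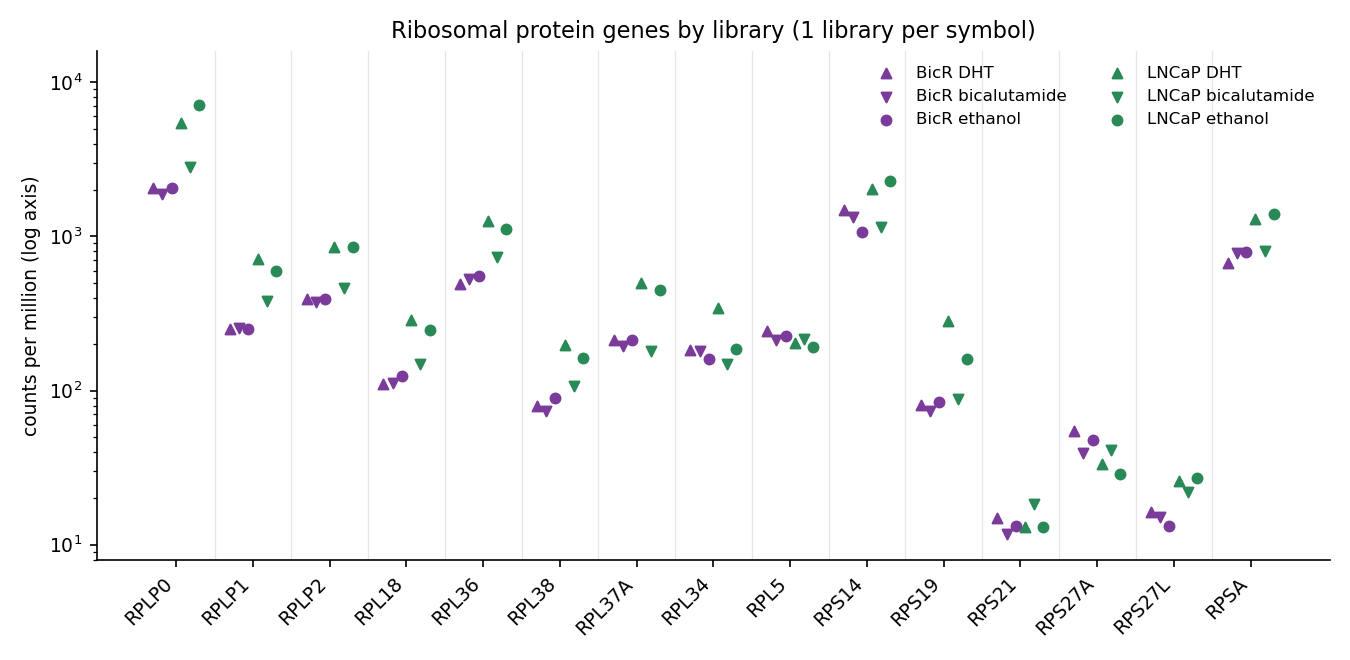
CPM (log axis) of 15 ribosomal protein genes, 1 symbol per library, BicR in purple left of LNCaP in green. RPLP0, RPLP1, RPL18, RPL36, RPL38 and RPS27L, the 6 genes called lower in BicR from these same libraries, have all 3 BicR symbols below the 3 LNCaP symbols, while RPS27A and RPS21 do not.

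The calls between the lines depended on which libraries were in the fit. Without LNCaP DHT, without LNCaP bicalutamide, without BicR DHT or without BicR bicalutamide 0 members were called, and without LNCaP ethanol or without BicR ethanol 7 were. Without either bicalutamide library 0% of all genes were called lower, while the members' median was -0.63 and 44 members were lower at an unadjusted p under 0.05. In no fit was the share of all genes under that unadjusted p computed. Without LNCaP DHT or BicR DHT 1.9% and 2.13% of all genes were called lower, and the members' median was -0.29 in both fits. Without LNCaP ethanol or BicR ethanol 3.19% and 3.38% were, and the median was -0.36. DESeq2's Wald test called 23 members lower, against 6.72% of all genes, limma with voom 6, against 3.13%, and edgeR called 12 with total counts, against 3.72%, and 14 with no filter on low counts, against 4.63%. DESeq2 and limma called 0 members higher, with 1 higher at an unadjusted p under 0.05 in edgeR and in limma and 2 in DESeq2.

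By treatment, the lines differed under DHT and ethanol and hardly under bicalutamide. In BicR minus LNCaP under DHT the median was -0.67, with 45 members at least 1.5-fold lower in BicR, against 14.5% of all genes, and 1 higher, against 10.9%. Under ethanol it was -0.51, with 34 lower, against 12.8%, and 1 higher, against 8.43%. Under bicalutamide it was -0.03, with 1 lower, against 5.69%, and 1 higher, against 3.31%, which were RPS21 (-0.59) and RPS13 (0.68), named after their values were seen. RPS27A was the higher one under DHT and ethanol, with 54.9 CPM in BicR DHT against 33.2 CPM in LNCaP DHT, and 48.0 CPM in BicR ethanol against 28.6 CPM in LNCaP ethanol.

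Under ethanol the lowest large subunit genes in BicR were RPLP0 at -1.81 and RPL8 at -1.33, and the lowest of the small subunit were RPS14 at -1.09 and RPS28 at -1.03. RPS20, in the head, had 341 CPM in BicR ethanol and 234 CPM in LNCaP ethanol, a log2 difference of 0.54. RPL5 differed by 0.23 and RPL26 by 0.21. RPS4X, the copy on the X chromosome, was among the most even members, with 748 to 903 CPM in BicR and 780 to 919 CPM in LNCaP.

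The members are short genes, and the libraries differed by gene length. Relative length, taken as counts over RPKM and set to 1 for the median tested gene, had a median of 0.251 in the members (large subunit 0.280, small subunit 0.245), and 63 of 78 lay among the shortest 10% of tested genes. Over 10 equal bins of length, the median of all genes in LNCaP bicalutamide minus LNCaP ethanol ran from -0.25 in the shortest to 0.27 in the longest bin. The 299 genes of the shortest bin that averaged at least 50 CPM and are no members had a median of -0.46, with 117 of them at least 1.5-fold lower. In BicR minus LNCaP ethanol their median was -0.50 and in BicR minus LNCaP DHT -0.58, beside -0.51 and -0.67 for the members.

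With the trend on length taken off each library, the members' median became -0.32 in LNCaP bicalutamide minus LNCaP ethanol, with 16 members at least 1.5-fold lower, against 6.08% of all genes, and 2 higher, against 5.56%. It became 0.35 in LNCaP DHT minus LNCaP bicalutamide, -0.28 in BicR minus LNCaP ethanol and -0.33 in BicR minus LNCaP DHT. Among the members the correlation of length with the difference in LNCaP bicalutamide minus LNCaP ethanol was 0.12 (Pearson) and 0.19 (Spearman). The 63 members inside the shortest bin had a median of -0.62 there, and the 15 outside it -0.56. In edgeR over both lines the bicalutamide medians were -0.33 inside and -0.20 outside, and in BicR minus LNCaP they were -0.46 and -0.29. Members shorter than the member median had -0.38 for bicalutamide and -0.50 for BicR minus LNCaP in the same fit, against -0.19 and -0.29 for the other members. RPLP0 kept -1.14 after the length trend was removed, and RPL37A kept -0.97.

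**Figure D4:**
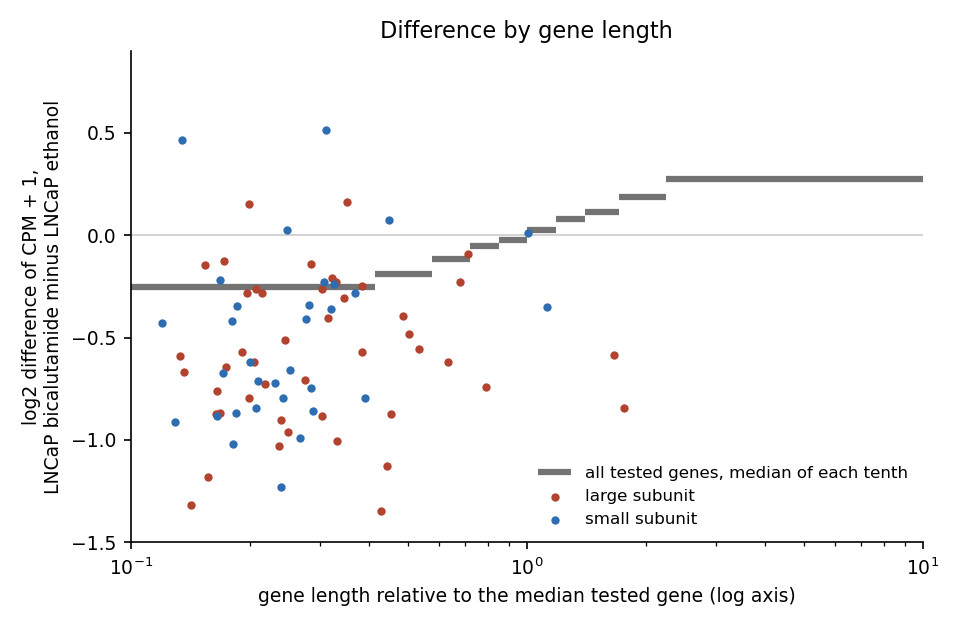
Log2 difference of CPM + 1 in LNCaP bicalutamide minus LNCaP ethanol against gene length relative to the median tested gene (log axis) for each ribosomal protein gene, with grey bars at the median of all tested genes in each of 10 bins of length. The bars climb from -0.25 to 0.27, and most points of the shortest bin lie below its bar.

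Base composition went with the differences among the members. GC content of the principal transcript in GENCODE release 29, matched by symbol, was available for all 78 members and 84.5% of tested genes. In LNCaP bicalutamide minus LNCaP ethanol its correlation with the difference was -0.44 (Pearson) and -0.50 (Spearman) over 78 members, which share their libraries, and -0.49 and -0.54 over 11731 tested genes. The 26 members with the lowest GC, 40.6% to 47.5%, had a median of -0.30 and 5 of them at least 1.5-fold lower. The middle 26 had -0.62 and 15 such genes, and the 26 with the highest GC, 52.1% to 66.2%, had -0.82 and 20. In BicR minus LNCaP ethanol the medians over the same 3 sets were -0.28, -0.51 and -0.87.

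With the trends on length and GC both removed, the members' median was -0.26 in LNCaP bicalutamide minus LNCaP ethanol, and 11 were at least 1.5-fold lower, against 4.51% of all genes. Among them were RPLP0, RPL10, RPL13, RPL27A, RPL28, RPL35, RPL35A, RPL37, RPL37A and RPS14, which are named because they passed this adjustment. RPS21 and RPS27A were at least 1.5-fold higher, against 3.68% of all genes. In BicR minus LNCaP ethanol the median became -0.32, under DHT -0.40, and in LNCaP DHT minus LNCaP ethanol 0.07. In edgeR with both trends as offsets 2 members stayed lower in BicR over the 3 treatments, RPLP1 (adjusted p = 0.0396) and RPL38 (adjusted p = 0.0498), against 2.72% of all genes, a share near that of the members, while RPLP0 had a log2 fold change of -1.03 with an adjusted p of 0.0630. What lies behind the trends on length and GC was not tested.

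**Figure D5:**
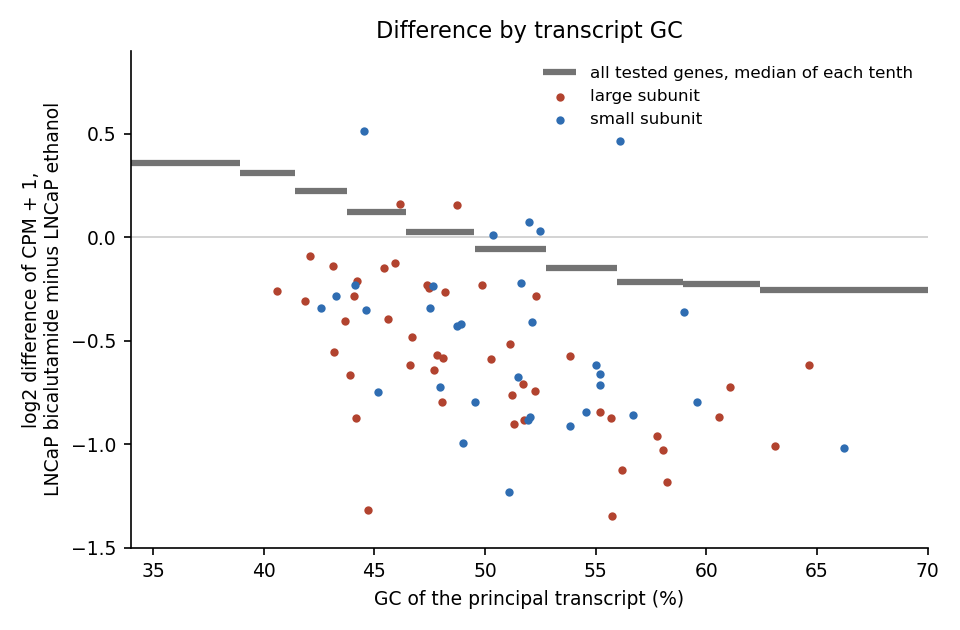
Log2 difference of CPM + 1 in LNCaP bicalutamide minus LNCaP ethanol against GC of the principal transcript (%) for each ribosomal protein gene, with grey bars at the median of all tested genes in each of 10 bins of GC. Both slope downward, and most members lie below the bars at the same GC.

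Other genes of protein synthesis and other short genes were set beside the members. In LNCaP bicalutamide minus LNCaP ethanol the median was -0.24 for 76 mitochondrial ribosomal proteins, of which 7 were at least 1.5-fold lower and 3 higher. It was -0.17 for 19 further TOP genes, with 6 lower and 0 higher, 0.01 for 36 initiation factors, with 3 lower and 0 higher, and -0.02 for 69 ribosome assembly genes, with 3 lower and 1 higher. Short genes of respiration had -0.30, with 19 of 75 lower and 1 higher, 18 Sm and LSm proteins of RNA processing -0.02, with 0 in either direction, and 37 proteasome genes -0.17, with 2 lower and 0 higher. The 10 RPS6K kinases had -0.02, with 0 in either direction. With the length trend removed, the mitochondrial ribosome stood at 0.01, the TOP genes at -0.03 and respiration at -0.06, beside -0.32 for the members. No trend on expression level was removed. For the 299 other genes of the shortest bin that averaged at least 50 CPM, the value after this removal is not given here. Without it, edgeR medians of these 299 genes were -0.24 for bicalutamide and -0.39 for BicR minus LNCaP, beside -0.32 and -0.43 for the members. Between the lines the respiration genes lay close to the members. In edgeR over the 3 treatments their median was -0.40 with 5 of 75 called lower in BicR, beside -0.43 and 6 of 78 for the members, and in BicR minus LNCaP DHT it was -0.58 with 36 of 75 at least 1.5-fold lower.

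Single TOP genes came close to the members. FAU, whose product carries the small subunit protein RPS30 fused to a ubiquitin-like domain, had 69.7 CPM in LNCaP bicalutamide and 131 CPM in LNCaP ethanol, a log2 difference of -0.90. GNB2L1, which encodes the small subunit scaffold RACK1, differed by -0.69 and the elongation factor EEF2 by -0.66. EEF1A1, the factor that brings aminoacyl-tRNA, differed by -0.24 and TPT1 by -0.17. In BicR DHT minus BicR ethanol, EEF2 differed by -0.29 and EEF1A1 by 0.06. MYC, an activator of ribosomal protein genes, had 338, 323 and 365 CPM in BicR under DHT, bicalutamide and ethanol, and 387, 262 and 226 CPM in LNCaP, so its lowest level was in LNCaP ethanol. For 16 small nucleolar RNAs encoded in introns of ribosomal protein genes the median in LNCaP bicalutamide minus LNCaP ethanol was -0.06, with 4 at least 1.5-fold higher and 0 lower.

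Some members are themselves copies of other members. RPS27L had 22.1 CPM in LNCaP bicalutamide and 27.1 CPM in LNCaP ethanol, a log2 difference of -0.28, and its parent RPS27 differed by -0.43. RPL39L had 6.35 CPM in LNCaP bicalutamide and 12.7 CPM in LNCaP ethanol, a difference of -0.90, and its parent RPL39 -0.67. RPL10L, known from the testis in mouse and man, had 39.1 CPM in LNCaP bicalutamide and 64.6 CPM in LNCaP ethanol, a difference of -0.71, beside -0.74 in RPL10. Per gene length RPL10L averaged 38.6 RPKM over the libraries, above the 23.4 RPKM of RPL10. A shared origin of reads between such copies was not tested. Among the symbols under the count filter were RPL3L with 1 to 8 counts and RPL21 with 0 counts in every library, and RPL21 has 66 annotated pseudogene copies.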

How the data were processed

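Per the labels' protocols, ISOGEN extracts of LNCaP and BicR cells were read on a SOLiD 3 Plus sequencer as total RNA libraries. Per the file headers, the authors deposited raw counts for each gene symbol. The same table has the authors' RPKM. The series' design text speaks of short RNA and miRNAs, whereas the table lists gene symbols with RNA-seq counts, and which RNA sizes were sequenced could not be settled. The submitters' processing notes name hg19 as build. Aligner, counter, annotation and strand setting were not given in the sources at hand, so reads shared between near-identical copies may have been split or lost. The table gave no coordinates.

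Genes averaging at least 20 counts over 6 libraries were kept (13885). CPM were computed from the deposited counts with TMM sizes in edgeR 4.0.16 (R 4.3.3). Differences of log2(CPM + 1), which understate changes of low genes, were called at 1.5-fold. The additive edgeR fit left 2 residual degrees of freedom and its prior held 6.80. In it the disagreement of the lines is the error, and no label names separate cultures within a group, so p-values measure the spread between these libraries only. The 2-sided test was checked on simulated counts with changes larger than those of the members, which does not show how it does at the members' differences. Intervals of ratios are exact (Clopper-Pearson) and those of shares are Wilson intervals, all at 95%, and they cover counting error only.

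Relative length was counts over RPKM. Length and GC trends over all tested genes were fitted with lowess per library (span 0.3) and subtracted. Starts came from RefSeq (GRCh38.p14) by symbol. Alternatives used DESeq2 1.42.0, limma 3.58.1, other scalings, pseudocounts and left-out libraries. The members, gene lists and tests were chosen with earlier results of these data known. Named were RPLP0 to RPLP2 and RPSA, per subunit the 3 highest and 3 lowest mean RPKM and the 2 highest and 2 lowest differences in 4 comparisons (LNCaP bicalutamide and DHT minus ethanol, BicR DHT minus ethanol, BicR minus LNCaP ethanol), members ending in L or X, those passing edgeR, and fixed relatives. Others were named after their values were seen. Some genes that the rule names are not reported here.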

Additional observations from a re-analysis of the deposited data

Results flagged for a closer look

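RPS14, a protein of the small subunit platform, moved in opposite directions with bicalutamide in the 2 lines, each by more than 1.2-fold with both counting intervals clear of that ratio. Its ratio of bicalutamide to ethanol was 1.25 in BicR (95% interval 1.23 to 1.26) and 0.503 in LNCaP (95% interval 0.498 to 0.508). The difference between the lines was not tested, since each ratio rests on 1 library per group. Only members named by the rule given under processing were searched for such a pattern, so RPS14 is not singled out among all 78. RPS13 had 153 CPM in LNCaP bicalutamide and 206 in LNCaP ethanol, but 245 in BicR bicalutamide and 186 in BicR ethanol. RPL32 had 546 and 838 CPM in LNCaP and 763.5 and 622 CPM in BicR, in the same order.

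Rows named as ribosomal protein pseudogenes, which are no members and which the report names nowhere else, took between 0.112% and 0.146% of counts per library. RPSAP58 held the most, with 18971, 22731 and 24498 counts in BicR under DHT, bicalutamide and ethanol, and 31312, 24639 and 31721 in LNCaP. RPL19P12 held 5884, 7419 and 6896 counts in BicR and 20836, 6341 and 12656 in LNCaP.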

How the results depend on the processing

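No paired analysis was possible because the labels give no replicate numbers and each group has 1 library. The calls between the lines were the least stable result. edgeR's 6 members lower in BicR became 12 with total counts (3.72% of all genes), 14 with no filter on low counts (4.63%), 23 with DESeq2's Wald test (6.72%) and 2 with offsets for gene length and GC (2.72%), and ran from 0 to 7 with 1 library left out, being 0 without LNCaP DHT, LNCaP bicalutamide, BicR DHT or BicR bicalutamide. For DHT and for bicalutamide over both lines 0 members were called under every alternative run.

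In edgeR the member median for DHT over both lines ran from -0.13 to 0.29 with 1 library left out. Between pairs of libraries the member medians kept their sign under every scaling, pseudocount, unit and trend alternative run, except BicR DHT minus BicR ethanol, whose main value lay near 0. They moved beyond counting error as follows. Without scaling factors the medians were 0.25 in LNCaP DHT minus LNCaP ethanol, -0.43 in LNCaP bicalutamide minus LNCaP ethanol, 0.68 in LNCaP DHT minus LNCaP bicalutamide, -0.073 in BicR DHT minus BicR ethanol, -0.32 in BicR minus LNCaP ethanol and -0.64 in BicR minus LNCaP DHT. This scaling also moved the median of all genes to 0.15 in LNCaP bicalutamide minus LNCaP ethanol and to 0.17 in BicR minus LNCaP ethanol. With upper quartile scaling the medians were 0.20 and -0.56 in LNCaP DHT and LNCaP bicalutamide minus LNCaP ethanol, -0.044 in BicR DHT minus BicR ethanol and -0.45 in BicR minus LNCaP ethanol. From RPKM they were -0.48 in LNCaP bicalutamide minus LNCaP ethanol, 0.68 in LNCaP DHT minus LNCaP bicalutamide, -0.098 in BicR DHT minus BicR ethanol and -0.39 in BicR minus LNCaP ethanol. With a pseudocount of 5, BicR minus LNCaP gave -0.48 under ethanol and -0.64 under DHT. With the length trend removed the medians, in the order of the first list, were 0.047, -0.32, 0.35, -0.027, -0.28 and -0.33, and BicR bicalutamide minus BicR ethanol gave -0.030. With length and GC trends removed, an alternative chosen after seeing the data, they were 0.067, -0.26, 0.34, -0.031, -0.32 and -0.40, and BicR bicalutamide minus BicR ethanol gave -0.043. The cause was not tested. Members at least 1.5-fold lower in LNCaP bicalutamide than in LNCaP ethanol numbered 40, and 27 without scaling factors, 16 with length and 11 with length and GC trends removed. Low counts limit RPL3L and RPL21, which no comparison used, while 1 library per group leaves variation between cultures unmeasured.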
